A study of Mus musculus with 12 samples.

Results

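The genes described here are Pou5f1, Sox2, Nanog, Sall4 and Utf1, a set at the centre of the transcription factor network that keeps mouse embryonic stem cells pluripotent. They were taken by gene symbol from a table of 12955 genes, and all 5 were found, each in 1 row, and all 5 passed the filter on low values used for testing. Messenger RNA was sequenced in 12 libraries of mouse primordial germ cell-like cells (PGCLCs), which are made in culture as a model of the embryonic cells that give rise to sperm and eggs. The study's title names Tex10, a nuclear protein known in mouse embryonic stem cells as a partner of SOX2 that also takes part in ribosome maturation. All cells came from J1, a male mouse embryonic stem cell line, were grown as embryoid bodies (floating cell aggregates) and were sorted with antibodies to CD61 and SSEA1. There were 6 groups of 2 libraries: day 6 OE and day 6 EV, day 2 dTAG13 and day 2 DMSO, and day 2 OE and day 2 EV. OE and EV are the labels' own abbreviations and are not spelled out there. dTAG13 is a small molecule that directs suitably tagged proteins to degradation, DMSO is its solvent, and the cells received either for 2 days. Neither the tag nor the clone behind the dTAG13 and DMSO groups is given in the labels. The libraries of a group are numbered but not said to come from separate cultures, so p-values measure the spread between these libraries, which may be technical.

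OCT4 (the protein of Pou5f1) and SOX2 bind DNA side by side at a composite site, an HMG-box contact next to an octamer contact, and switch on each other, Nanog and themselves. NANOG is a homeodomain protein that shares many of those binding sites, SALL4 is a zinc finger protein that binds with OCT4 and recruits the NuRD chromatin remodeller, and UTF1 is a chromatin-associated protein whose gene is a classic target of OCT4 with SOX2. Mouse primordial germ cells keep or regain all these genes, and loss of Pou5f1, Nanog or Sall4 in mice impairs the survival or specification of germ cells.

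The promoters of 3 of the genes are shown because they differ in the letters that OCT4 and SOX2 recognise. RefSeq promoter windows (GRCm38.p6, 250 bases before to 50 bases after a start) were available for Pou5f1, Sox2, Nanog and Utf1. Each window was searched on both strands for ATGCAAA (the octamer core), CATTGT (the SOX core), GGGCGG (a GC box) and a composite of the SOX core, 0 to 3 further bases and the octamer core. Each stretch ends before its own gene's first annotated start, and capitals mark the motif letters. The Nanog stretch is chr6:122707239-122707488, the Sox2 stretch is chr3:34649745-34649994 and the Utf1 stretch is chr7:139943606-139943788, all on the plus strand.
Nanog: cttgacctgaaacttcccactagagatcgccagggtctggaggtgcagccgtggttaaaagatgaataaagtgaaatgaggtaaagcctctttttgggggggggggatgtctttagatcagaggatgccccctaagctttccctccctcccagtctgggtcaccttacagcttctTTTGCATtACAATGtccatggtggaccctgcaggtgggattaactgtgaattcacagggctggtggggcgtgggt
Sox2: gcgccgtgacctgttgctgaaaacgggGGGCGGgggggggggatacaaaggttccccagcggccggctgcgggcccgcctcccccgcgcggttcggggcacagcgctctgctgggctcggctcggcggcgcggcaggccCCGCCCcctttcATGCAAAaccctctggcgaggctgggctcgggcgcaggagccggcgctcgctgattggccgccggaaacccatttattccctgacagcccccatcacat
Utf1: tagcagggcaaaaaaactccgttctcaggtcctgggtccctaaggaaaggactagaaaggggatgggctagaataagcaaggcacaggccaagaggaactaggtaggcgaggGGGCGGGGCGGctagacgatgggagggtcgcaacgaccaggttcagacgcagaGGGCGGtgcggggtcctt
In Nanog the capitals are the composite, whose octamer core begins -75 bases from the start at chr6:122707414-122707427. The composite occurred in 3 of 32851 mouse promoter windows (0.00913%), and 2 of those 3 were overlapping windows of Nanog itself. In Sox2 the capitals are an octamer core at -99 and GC boxes at -223 and -111, with no SOX core in the window. In Utf1 they are GC boxes at -138, -133 and -85, the first pair sharing 1 base. A further GC box at -56 lay beyond the printed stretch, and the Utf1 window held neither core. The window at the main start of Pou5f1 held a GC box at -45 and neither core, and a second window, inside the gene, held a SOX core at -158. The octamer core alone occurred in 4.63% of all windows, the SOX core in 12.6% and the GC box in 35.7%, so single matches were common, and a match is only a description of the letters.

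The deposited values are FPKM (read fragments scaled to transcript length and library size), and they do not show how deeply a library was sequenced. The FPKM of a library added up to between 550230 and 673435. Tex10 stood at 259 and 269 FPKM in day 6 OE, against 65.7 and 81.5 in day 6 EV. At day 2 Tex10 stood at 403 and 378 FPKM in OE, against 119 and 145 in EV, and at 45.2 and 36.5 with dTAG13, against 61.7 and 56.8 with DMSO. A degrader acts on protein, which was not measured. D2_dTAG replicate 1 stood apart, with 2008 genes (15.5%) listed at 0, against 18 to 127 genes in each of the 11 other libraries. Most calls that rest on it are given with and without it. Of 11 germ cell markers all were in the table. Their summed level ran from 785 to 852 FPKM in day 6 OE and 660 to 692 in day 6 EV. It ran from 1315 to 1473 with dTAG13, 1036 to 1178 with DMSO, 970 to 1119 in day 2 OE and 1053 to 1126 in day 2 EV. In the limma fit described below, 3 of these 11 were higher with dTAG13 than with DMSO and 3 lower. The shares of all tested genes were 4.01% and 8.21%. The markers' median log2 change was -0.50, against -0.13 for all tested genes, so the sum and the median differed in direction. Of 7 endoderm markers 2 were in the table, summing to at most 6.39 FPKM in a library, and of 7 fibroblast and feeder markers 1, at most at 0.834. Itgb3, the gene of the sorting marker CD61, was low in all libraries, from 0 in D2_dTAG replicate 1 to 4.39 FPKM in D6_OE replicate 2.

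Pou5f1 was the most abundant of the genes in most libraries and Sox2 the least abundant in all. Mean FPKM over the 12 libraries was 834 for Pou5f1, 631 for Utf1, 204 for Nanog, 98 for Sall4 and 32.1 for Sox2. Within a library, Pou5f1 exceeded 98.7% to 99.5% of genes, Utf1 97.1% to 99.4%, Nanog 94.1% to 97.3%, Sall4 81.9% to 92.1% and Sox2 70.4% to 78.7%. Utf1 varied most, with its highest library 4.11 times its lowest. The corresponding ratio was 2.45 for Sall4, 1.89 for Pou5f1, 1.83 for Nanog and 1.69 for Sox2. On the log2(FPKM + 1) scale, Utf1 had a larger SD over the 12 libraries (0.70) than 87.4% of the 12059 tested genes, whereas Sox2 (0.23) exceeded 14.1% of them and Pou5f1 (0.27) 22.3%.

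**Figure D1:**
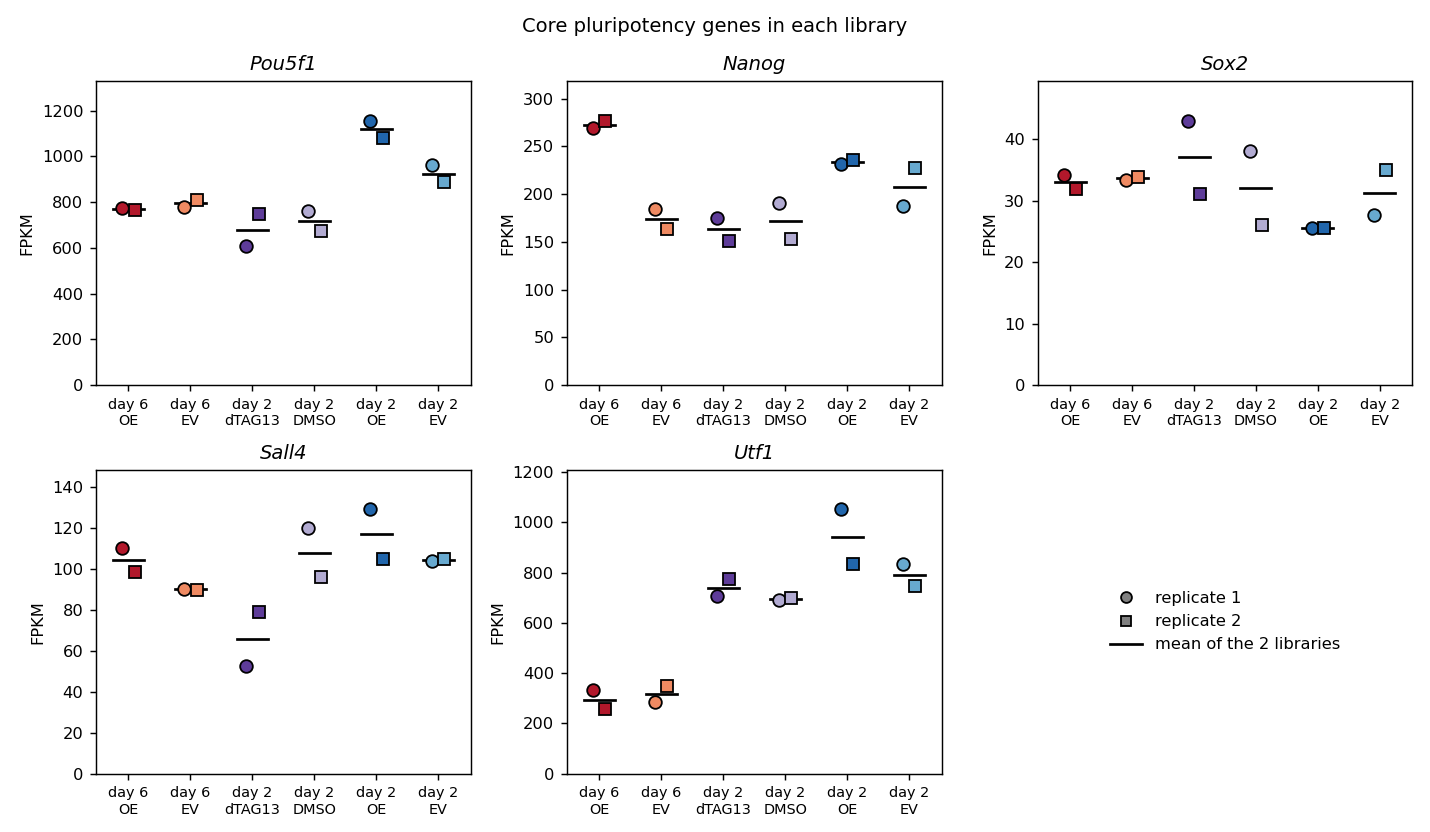
FPKM of Pou5f1, Nanog, Sox2, Sall4 and Utf1 (vertical axes, from 0) in the 6 groups (horizontal axes); circles are replicate 1, squares replicate 2 and lines the mean of the 2 libraries. Utf1 lies between 256 and 351 FPKM in the 4 day 6 libraries and between 693 and 1052 in the 8 day 2 libraries, while Nanog is highest in day 6 OE at 269 and 277.

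Changes are differences of log2(FPKM + 1), a scale that shrinks the changes of genes with low FPKM, from limma over all 12059 tested genes, with Benjamini-Hochberg adjustment and n = 2 libraries per group. At day 2, none of the 5 genes passed in OE against EV, while 0.846% of all tested genes passed (0.44% higher, 0.406% lower). An unadjusted p below 0.05 was found for 1 of the 5 and for 12.3% of all tested genes. Values lay above 0 for 4 of the 5, with a median of 0.18, against 0.04 for all tested genes. At day 6, OE against EV raised 1 of the 5, Nanog, while 3.72% of all tested genes passed (1.92% higher, 1.79% lower), and the unadjusted p was below 0.05 for the same count of 1 and for 18% of all genes. No gene of the set passed the test of whether the OE effect differed between days, while 0.232% of all genes did (0.0663% with a higher and 0.166% with a lower effect at day 6). Its unadjusted p was below 0.05 for 1 of the 5 and 10.8% of all genes. With dTAG13, 1 of the 5, Sall4, fell against DMSO, while 12.2% of all genes passed (4.01% higher, 8.21% lower) and 31.5% had an unadjusted p below 0.05. Between day 6 and day 2, 1 of 5 fell in EV (Utf1), while 23.7% of all genes passed (13.3% higher, 10.5% lower; 36.8% at an unadjusted p below 0.05). In OE 2 of 5 fell (Utf1 and Pou5f1), while 32.3% of all genes passed (17.5% higher, 14.7% lower, and 42.7% at an unadjusted p below 0.05). Both counts are near the share of all genes that passed in either direction. They are above the share that was lower, in a set of only 5 genes. DMSO against EV at day 2 compares the controls of the 2 designs at the same day. None of the 5 passed in it, while 0.39% of all genes passed (0.249% higher, 0.141% lower). An unadjusted p below 0.05 was found for 1 of the 5 and 8.92% of all genes. The comparisons share groups: day 2 EV serves in 4 of these 7 contrasts, so their values are not independent.

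**Figure D2:**
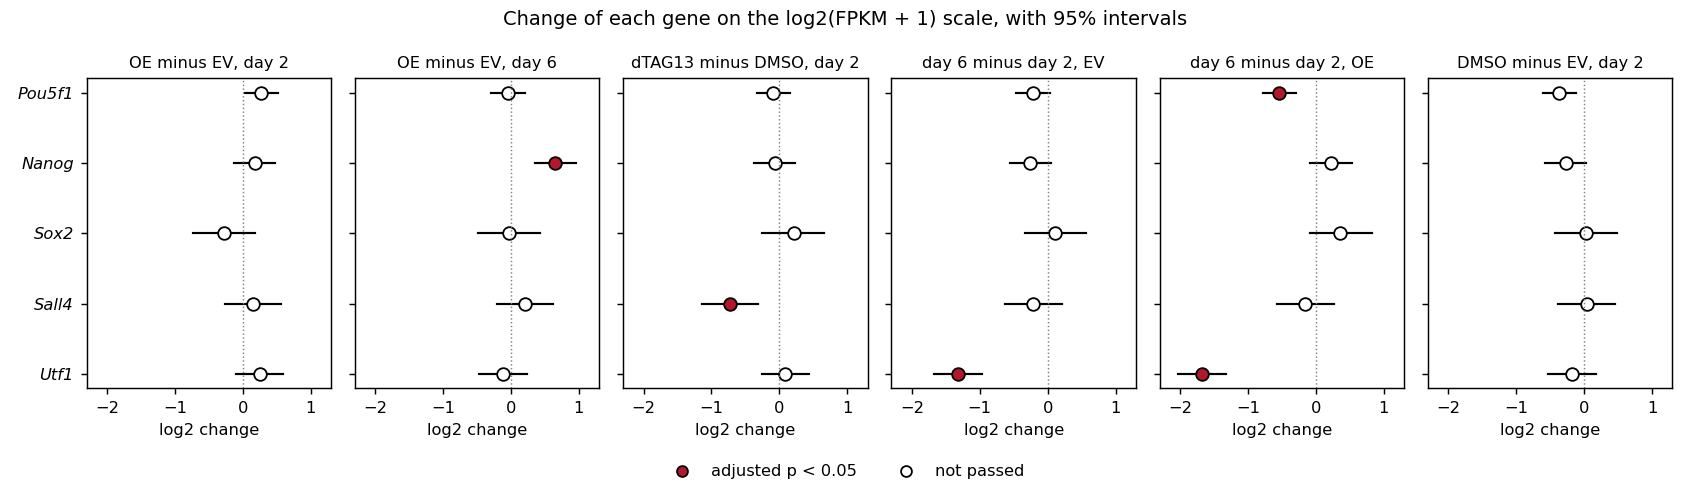
Change of each gene on the log2(FPKM + 1) scale (horizontal axes) in 6 comparisons, with 95% confidence intervals as lines; filled points passed an adjusted p of 0.05. The filled points are Nanog at 0.65 (OE minus EV, day 6), Sall4 at -0.72 (dTAG13 minus DMSO), Utf1 at -1.32 and -1.68 (day 6 minus day 2 in EV and in OE) and Pou5f1 at -0.54 (day 6 minus day 2 in OE).

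Pou5f1 encodes OCT4, without which embryonic stem cells lose pluripotency (GRCm38 chr17:35506018-35510772, plus strand; the antisense gene Gm19553 overlaps it, and whether counting used strand is not given in the sources used here). RefSeq names 7 pseudogene copies of Pou5f1, of which 0 were in the table, so shared reads make its level uncertain. Pou5f1 stood at 773 and 766 FPKM in day 6 OE and 780 and 810 in day 6 EV. With dTAG13 it stood at 610 and 747 FPKM, against 760 and 675 with DMSO. In day 2 OE it stood at 1156 and 1080 FPKM, against 961 and 889 in day 2 EV. Both day 2 OE libraries were thus the highest of the 12, and the dTAG13 and DMSO ranges overlapped. Mean FPKM was 770 ± 5.04 in day 6 OE and 795 ± 21.5 in day 6 EV, 679 ± 96.9 with dTAG13 and 718 ± 60 with DMSO, and 1118 ± 53.6 in day 2 OE and 925 ± 50.9 in day 2 EV (SD, n = 2). The order by mean, from high to low, was day 2 OE, day 2 EV, day 6 EV, day 6 OE, DMSO and dTAG13, and only the last pair of neighbours in it overlapped.

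Pou5f1 fell in OE at day 6 against day 2 by 0.54 on the log2 scale (SE 0.11, adjusted p = 0.00467, limma, n = 2 per group). That change passed under all 12 alternative settings tried, with adjusted p from 0.000291 to 0.0483, and was smallest, -0.27, under quantile normalization. In EV the change between the same days was -0.22 (adjusted p = 0.183). OE against EV was 0.27 at day 2 (95% interval 0.03 to 0.52, adjusted p = 0.341) and -0.05 at day 6 (-0.29 to 0.20), and the difference between the OE effects was -0.32 (adjusted p = 0.509). DMSO against EV gave -0.37 (unadjusted p = 0.00742, adjusted p = 0.321), which passed in the fit without D2_dTAG replicate 1 (-0.37, adjusted p = 0.0309) and under none of the 11 other alternatives. dTAG13 against DMSO gave -0.09 (95% interval -0.33 to 0.16).

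Sox2, the partner of OCT4 at composite sites (GRCm38 chr3:34650405-34652461, plus strand, inside the longer transcript Sox2ot on the same strand, whose reads could be counted with it), passed in no comparison. It stood at 34.2 and 31.9 FPKM in day 6 OE and 33.4 and 33.9 in day 6 EV. With dTAG13 it stood at 43 and 31.1 FPKM, against 38 and 26.1 with DMSO. In day 2 OE both libraries stood at 25.5 FPKM, against 27.6 and 34.9 in day 2 EV. The day 2 OE libraries were the lowest of the 12, and all other groups overlapped with their neighbour in the order of means, which was dTAG13, day 6 EV, day 6 OE, DMSO, day 2 EV and day 2 OE. OE against EV at day 2 gave -0.28 (95% interval -0.73 to 0.18, adjusted p = 0.706) and at day 6 gave -0.03 (-0.48 to 0.43). The largest difference was day 6 against day 2 in OE, 0.36 (-0.09 to 0.82, adjusted p = 0.205), which passed when the 2 groups were fitted alone (adjusted p = 0.0101) and under none of the 11 other alternatives.

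Nanog, whose protein stabilises the pluripotent state and whose mouse gene supports germ cell formation (GRCm38 chr6:122707489-122714633, plus strand, with 2 RefSeq pseudogene copies, 0 of them in the table, so shared reads are possible), rose in OE at day 6. It stood at 269 and 277 FPKM in day 6 OE, against 184 and 163 in day 6 EV. At day 2 it stood at 232 and 236 FPKM in OE, against 188 and 227 in EV. With dTAG13 it stood at 175 and 151 FPKM, against 191 and 153 with DMSO. The day 6 OE pair was the highest of the 12 libraries, OE and EV did not overlap at either day, and dTAG13 and DMSO did. Mean FPKM was 273 ± 5.02 in day 6 OE and 173 ± 15.5 in day 6 EV, 234 ± 3.36 in day 2 OE and 208 ± 27.4 in day 2 EV, and 163 ± 17.4 with dTAG13 and 172 ± 26.4 with DMSO (SD, n = 2). From high to low the order was day 6 OE, day 2 OE, day 2 EV, day 6 EV, DMSO and dTAG13, and the last 3 groups overlapped, each with the next.

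The day 6 change of Nanog was 0.65 (SE 0.14, 95% interval 0.35 to 0.96, adjusted p = 0.0313, limma, n = 2 per group), and at day 2 it was 0.18 (-0.13 to 0.48, adjusted p = 0.727). The effects of the days were not shown to differ, since the difference was 0.48 (SE 0.19, adjusted p = 0.393). The day 6 call passed under 8 of 12 alternatives and was lost when any 1 of its 4 libraries was left out, with values of 0.74 without D6_EV replicate 1 (adjusted p = 0.108), 0.56 without D6_EV replicate 2 (0.259), 0.67 without D6_OE replicate 1 (0.191) and 0.64 without D6_OE replicate 2 (0.22), over a range of adjusted p from 0.000955 to 0.259. Nanog did not pass with dTAG13 (-0.07, 95% interval -0.37 to 0.23), in EV between the days (-0.26, adjusted p = 0.206) or with DMSO against EV (-0.27, adjusted p = 0.614). Day 6 against day 2 in OE gave 0.22 (adjusted p = 0.244), which passed only under quantile normalization (0.54, adjusted p = 0.00845) of the 12 alternatives.

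Nanog lies on chromosome 6 among other genes of pluripotent and germ cells, and the 5 tested genes on each side of it were read in the same fit. Not all were close by, since Pex5 and Clstn3 begin 1689.3 and 1723.3 kb after the start of Nanog. At day 6, 7 of the 10 neighbours lay above 0 in OE against EV, while 56% of all tested genes did, and 2 of the 10 passed, both higher, while 1.92% of all tested genes were higher. Dppa3, a germ cell marker that protects DNA methylation in the early embryo and begins 81.1 kb before Nanog by coordinate (a distance of -81.1 kb), stood at 21.2 and 20.4 FPKM in day 6 OE, against 7.05 and 9.63 in day 6 EV. Slc2a3, a glucose transporter gene that begins 20.3 kb after the start of Nanog, stood at 1973 and 1981 FPKM in day 6 OE, against 1167 and 959 in day 6 EV. Neither gene's OE and EV libraries overlapped, and both changes passed, at 1.24 for Dppa3 (SE 0.19, adjusted p = 0.00974) and 0.90 for Slc2a3 (SE 0.12, adjusted p = 0.00602). Of 12 alternatives, Dppa3 passed under 8 and Slc2a3 under 9, with adjusted p of up to 0.098 and 0.0854. The 10 neighbours ranged from -0.50 to 1.24 with a median of 0.36, against 0.19 for the 519 tested genes of chromosome 6 and 0.05 for all tested genes. At day 2, 8 of the 10 lay above 0, while 55.3% of all tested genes did. Their median was 0.35, against 0.14 for chromosome 6 and 0.04 for all tested genes, and none passed. Gdf3, a target of OCT4 and SOX2 in the same cluster, stood at -0.06 at day 6 (adjusted p = 0.928). Other comparisons split the neighbours more evenly. With dTAG13 against DMSO, 4 of the 10 lay above 0 and 6 below, while 38.4% of all tested genes lay above 0. Of the 10, 2 passed, both higher (Apobec1 at 1.37 and Dppa3 at 0.96), while 4.01% of all tested genes were higher. Nanog stood at -0.07 there. In EV at day 6 against day 2, 4 lay above 0, Slc2a3 at 1.80 among them, and 6 below, Dppa3 at -1.64 among them. Of the 10, 2 passed as higher and 1 as lower, while 13.3% and 10.5% of all tested genes did. In OE between the same days, 3 passed as higher and 3 as lower, while 17.5% and 14.7% of all tested genes did.

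**Figure D3:**
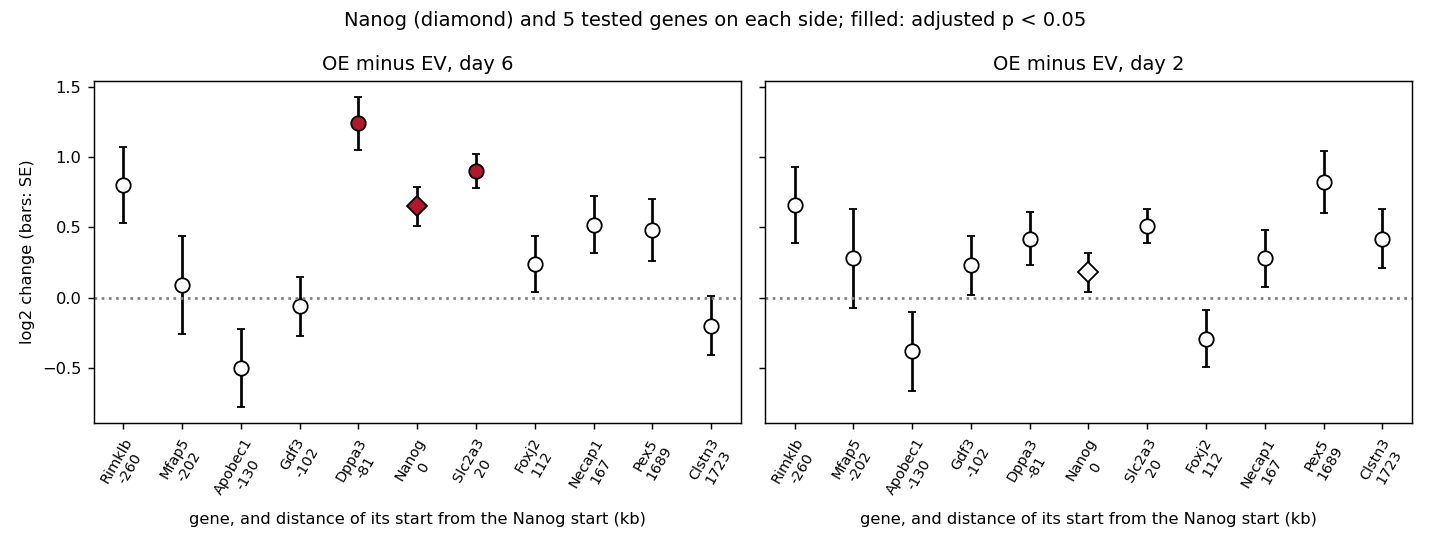
Change in OE against EV (log2 of FPKM + 1, vertical axis; bars are SE) of Nanog (diamond) and its 10 tested neighbours in chromosomal order, with the distance of each start from the Nanog start in kb; day 6 is on the left and day 2 on the right, and filled symbols passed. At day 6 the filled symbols are Dppa3 at 1.24, Nanog at 0.65 and Slc2a3 at 0.90, and no symbol is filled at day 2.

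Sall4, which in mice is required for the specification and upkeep of germ cells (GRCm38 chr2:168748332-168767943, minus strand, overlapped by Gm14261 on the other strand), fell with dTAG13. It stood at 52.6 and 78.8 FPKM with dTAG13, against 120 and 95.8 with DMSO. In day 6 OE it stood at 110 and 98.3 FPKM, against 90 and 89.9 in day 6 EV. In day 2 OE it stood at 129 and 105 FPKM, against 104 and 105 in day 2 EV. Both dTAG13 libraries were below all 10 others, and D2_dTAG replicate 1 was the lowest. Mean FPKM was 65.7 ± 18.5 with dTAG13 and 108 ± 16.9 with DMSO, 104 ± 8.13 in day 6 OE and 90 ± 0.081 in day 6 EV, and 117 ± 17.1 in day 2 OE and 104 ± 0.598 in day 2 EV (SD, n = 2). From high to low the order was day 2 OE, DMSO, day 2 EV, day 6 OE, day 6 EV and dTAG13, and the first 4 groups overlapped, each with the next.

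The Sall4 change with dTAG13 was -0.72 (SE 0.19, 95% interval -1.14 to -0.31, adjusted p = 0.0347, limma, n = 2 per group), where the median of all tested genes was -0.13. It was -0.44 without D2_dTAG replicate 1 (adjusted p = 0.0522) and -1.01 without D2_dTAG replicate 2 (adjusted p = 8.38e-05), and -0.57 without D2_DMSO replicate 1 (adjusted p = 0.225) and -0.88 without D2_DMSO replicate 2 (adjusted p = 0.0912). The call was also lost under quantile normalization (-0.70, adjusted p = 0.0657), under median-ratio scaling (-0.64, adjusted p = 0.0871) and with only the 2 groups fitted (adjusted p = 0.448), so it passed under 5 of 11 alternatives, with adjusted p from 8.38e-05 to 0.448. Of all genes called with dTAG13, 32.8% were higher, and 54.3% under median-ratio scaling. Sall4 did not pass in OE at day 2 (0.15, 95% interval -0.26 to 0.57) or day 6 (0.21, -0.21 to 0.62), or between days in EV (-0.21) or OE (-0.16). Of 7 trophoblast markers, 4 were in the table, with a summed level of 19.8 to 35.5 FPKM with dTAG13 and 16.1 to 22 with DMSO, and Cdx2, Tfap2a and Elf5 were not among them. The 5 of 7 mesoderm markers in the table summed to 7.94 to 12.5 FPKM with dTAG13 and 5.5 to 6.92 with DMSO, and 2 of them were tested. Most of the mesoderm sum with dTAG13 was Hand1, a gene on both lists. Hand1 stood at 7.94 and 10.7 FPKM with dTAG13, against 4.16 and 2.88 with DMSO (higher, adjusted p = 0.0149, limma). Eomes, the other tested mesoderm marker, stood at 0 and 1.47 FPKM with dTAG13, against 2.14 and 1.81 with DMSO. The other 3 tested trophoblast markers did not pass with dTAG13, with Gata2 at -0.15, Krt7 at -0.11 and Gata3 at 0.45. Krt7 stood at 0 FPKM in D2_dTAG replicate 1 and 12.6 in D2_dTAG replicate 2, against 2.91 and 3.02 with DMSO. The upper end of the trophoblast sum with dTAG13 thus holds a large part from Krt7 in 1 library. Hand1 and Gata2 were also higher in DMSO than in EV at day 2 (1.89, adjusted p = 0.0104, and 1.66, adjusted p = 0.029, limma). The part of these markers in the Sall4 result was not tested, and in bulk samples fewer cells of a type and less RNA per cell cannot be told apart.

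Utf1, a target gene of OCT4 with SOX2 (GRCm38 chr7:139943789-139945112, plus strand), fell between day 2 and day 6 in both EV and OE. It stood at 333 and 256 FPKM in day 6 OE, against 1052 and 835 in day 2 OE. In day 6 EV it stood at 286 and 351 FPKM, against 835 and 748 in day 2 EV. With dTAG13 it stood at 707 and 775 FPKM, against 693 and 700 with DMSO. All 4 day 6 libraries were below all 8 day 2 libraries. Mean FPKM was 295 ± 54.6 in day 6 OE and 319 ± 46.6 in day 6 EV, 741 ± 48 with dTAG13 and 697 ± 5.41 with DMSO, and 943 ± 154 in day 2 OE and 791 ± 61.9 in day 2 EV (SD, n = 2). From high to low the order was day 2 OE, day 2 EV, dTAG13, DMSO, day 6 EV and day 6 OE. The step between DMSO and day 6 EV was 2.19-fold, no other step exceeded 1.19-fold, and groups overlapped at each step but that one and the one between dTAG13 and DMSO.

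The change of Utf1 between day 6 and day 2 was -1.32 in EV (SE 0.16, 95% interval -1.67 to -0.97, adjusted p = 0.00053, limma) and -1.68 in OE (SE 0.16, -2.03 to -1.33, adjusted p = 7.42e-05). Both passed under all 12 alternatives, with values from -1.47 to -1.09 in EV and from -1.87 to -1.42 in OE. OE against EV gave 0.25 at day 2 (95% interval -0.10 to 0.60) and -0.12 at day 6 (-0.47 to 0.23), and the difference between them was -0.36 (adjusted p = 0.639). dTAG13 against DMSO gave 0.09 (-0.26 to 0.44). In the OE and EV groups, day 6 and day 2 cells also differed in markers of other states. Of 7 formative epiblast markers 5 were in the table, with Pou3f1 and Fgf8 not among them. They summed to 23 to 26.2 FPKM in day 6 OE and 42.8 to 47.7 in day 6 EV. At day 2 they summed to 87.3 to 92.3 in OE and 80 to 86.1 in EV, but to 47.9 to 51 with DMSO and 33 to 34.8 with dTAG13. The formative sum was thus not high in all day 2 groups. The largest part of that sum was Dnmt3b, a DNA methyltransferase gene. Dnmt3b stood at 13 and 11.6 FPKM in day 6 OE and 22.9 and 24.8 in day 6 EV. At day 2 it stood at 86.9 and 79.7 in OE and 79.9 and 72.4 in EV. It was also lower in DMSO than in EV at day 2 (-0.82, adjusted p = 0.0254, limma). Of the 4 tested formative markers, Dnmt3b fell in EV between days (-1.63, adjusted p = 5.88e-05), while Otx2 (1.79) and Lef1 (1.27, adjusted p = 0.0103) rose, against the direction of the sum. In OE 1 rose and 2 fell. The 4 of 7 neural ectoderm markers in the table, without Sox1, summed to 48.8 to 50.9 FPKM in day 6 OE and 67.9 to 70.7 in day 6 EV. At day 2 they summed to 124 to 131 in OE and 96.4 to 108 in EV, and to 78.7 to 81.1 with DMSO. With dTAG13 they summed to 57.9 to 66.8, below day 6 EV. Most of this sum was Tubb3, a neuronal tubulin gene, at 46.2 and 44 FPKM in day 6 OE and 65.7 and 63.2 in day 6 EV, against 125 and 119 in day 2 OE and 101 and 88.4 in day 2 EV. Of the 4 tested neural markers, 2 fell in EV and 3 in OE between days and none rose, while 10.5% and 14.7% of all tested genes were lower. Nes lay above 0 (0.52 in EV and 0.62 in OE) and did not pass. With dTAG13 against DMSO, 1 was higher and 2 were lower, while 4.01% and 8.21% of all tested genes were. The higher one was Neurod1, at 11.6 and 7.83 FPKM with dTAG13, against 1.2 and 0.964 with DMSO (2.34, adjusted p = 0.000567, limma). The part of these markers in the Utf1 and Pou5f1 results was not tested.

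The balance between the factors was described as FPKM relative to Pou5f1 of the same library, a ratio that does not depend on scaling between libraries. Nanog stood at 34.8% and 36.1% of Pou5f1 in day 6 OE, against 23.6% and 20.1% in day 6 EV, and at 19.6% to 28.8% in the 8 day 2 libraries. Utf1 stood at 33.5% to 43.4% of Pou5f1 in the 4 day 6 libraries, against 77.3% to 116% in the 8 day 2 libraries, and exceeded Pou5f1 in both dTAG13 libraries and in D2_DMSO replicate 2. Sox2 stood at 2.2% and 2.36% of Pou5f1 in day 2 OE, against 2.87% and 3.93% in day 2 EV, and at 3.87% to 7.04% elsewhere. Sall4 stood at 8.62% and 10.5% with dTAG13, against 15.7% and 14.2% with DMSO. The day 6 OE libraries therefore held the highest Nanog, the day 2 OE libraries the lowest Sox2, and the day 6 libraries the lowest Utf1 relative to Pou5f1.

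**Figure D4:**
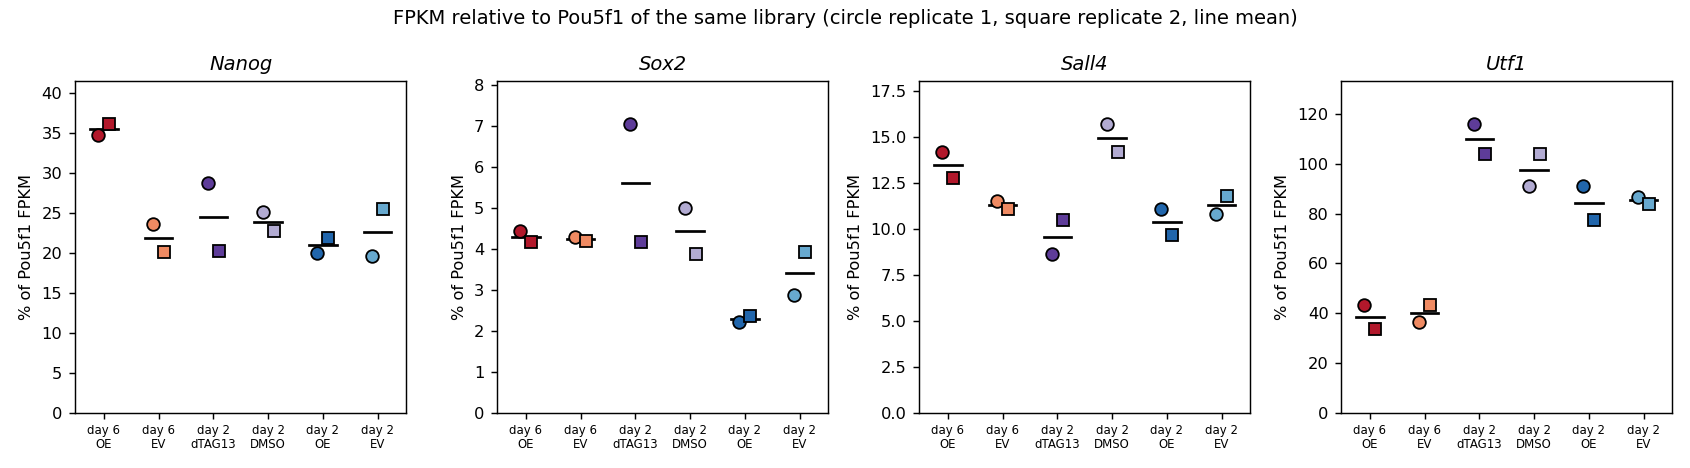
FPKM of Nanog, Sox2, Sall4 and Utf1 as a percentage of Pou5f1 FPKM in the same library (vertical axes, from 0) in the 6 groups; circles are replicate 1, squares replicate 2 and lines means. Nanog is highest in day 6 OE (34.8% and 36.1%), and Utf1 lies at 33.5% to 43.4% in the day 6 libraries.

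Likeness of pattern was measured as the root mean square difference between 2 genes' log2(FPKM + 1) values over the 12 libraries, after each gene's own mean was subtracted, among 7759 genes averaging at least 5 FPKM. Within the set, Pou5f1 and Sall4 were the closest pair (0.234), and 9.06% of genes were closer to Pou5f1 than Sall4 was. Pou5f1 and Nanog stood 0.290 apart, while Utf1 stood between 0.619 and 0.792 from the others. The nearest genes were Naa40 (0.074), Cyc1 (0.090) and Nudt16l1 (0.092) for Pou5f1, and Hsbp1 (0.103), Golga7 (0.105) and 1110059E24Rik (0.119) for Sox2. They were Rbbp5 (0.117), Kat6b (0.126) and Ptbp1 (0.128) for Nanog, Entpd6 (0.088), Mief2 (0.105) and Hinfp (0.105) for Sall4, and Nhp2 (0.127), Wdr46 (0.154) and Ccdc86 (0.154) for Utf1. No gene of the set was among the 3 nearest of another.

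Among 25 tested transcription factors that work with these 5 in pluripotent cells, none passed in OE at day 2 (limma), while 0.846% of all tested genes did. An unadjusted p below 0.05 was found there for 5 of the 25 and for 12.3% of all tested genes. At day 6, 1 was higher and 3 were lower, while 1.92% of all tested genes were higher and 1.79% lower. Zfp42 (REX1), a marker of naive pluripotency, stood at 431 and 408 FPKM in day 6 OE, against 722 and 771 in day 6 EV, and fell by 0.83 on the log2 scale (SE 0.11, adjusted p = 0.0056). Nr0b1 (DAX1), a nuclear receptor that binds OCT4, stood at 35.2 and 34 FPKM in day 6 OE, against 75.7 and 91.8 in day 6 EV, a change of -1.25 (SE 0.25, adjusted p = 0.0256). In neither gene did the OE and EV libraries overlap. Myc, a proto-oncogene, also fell (-1.37, adjusted p = 0.0303), and Tfcp2l1, a naive-state factor, rose (0.71, adjusted p = 0.0282). Of 12 alternatives, Zfp42 passed under 9 and the other 3 under 8 each, with adjusted p of up to 0.0854 for Zfp42, 0.225 for Nr0b1 and Tfcp2l1 and 0.247 for Myc, which also lost its call with the replicate number as a block (adjusted p = 0.0501). The list's median at day 6 was 0.09, against 0.05 for all tested genes. Without D2_dTAG replicate 1 the day 6 values were -0.83 for Zfp42, -1.25 for Nr0b1, -1.37 for Myc and 0.71 for Tfcp2l1.

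With dTAG13, 6 of the 25 transcription factors were lower and none higher, with a median of -0.33, against -0.13 for all tested genes, of which 8.21% were lower. Nacc1, a BTB-domain partner of NANOG, stood at 3.12 and 7.29 FPKM with dTAG13, against 22.6 and 21.8 with DMSO, a change of -1.99 (SE 0.28, adjusted p = 0.00304), or -1.49 without D2_dTAG replicate 1. The groups did not overlap. The other 5 were Myc (-1.02), Foxd3 (-0.90), Esrrb (-0.89), Tfcp2l1 (-0.72) and Prdm14 (-0.53), of which Esrrb and Tfcp2l1 belong to the naive state and Prdm14 is also a germ cell regulator. Nacc1 passed under 10 of 11 alternatives, Tfcp2l1 under 8 of 11, Prdm14 under 7 of 11, Esrrb and Myc under 6 of 11 and Foxd3 under 6 of 10. All but Nacc1 lost the call without D2_DMSO replicate 1 and without D2_DMSO replicate 2, with adjusted p of 0.0617 to 0.253, and Myc also with the replicate number as a block (adjusted p = 0.0623). Without D2_dTAG replicate 1, 10 of the 25 were lower, while 17% of all genes were, and Myc stood at -1.17, Tfcp2l1 at -0.80, Foxd3 at -0.71, Prdm14 at -0.66 and Esrrb at -0.55. Foxd3 stood at -0.50 under quantile normalization (adjusted p = 0.106) and at -1.43 with a pseudocount of 0.1. With only the dTAG13 and DMSO groups fitted, limma called no gene of the whole table (1162 had an unadjusted p below 0.05).

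Of the 25, 3 were higher and 5 lower at day 6 than at day 2 in EV, and 3 higher and 9 lower in OE, where 13.3% and 10.5% of all tested genes were higher and lower in EV and 17.5% and 14.7% in OE. The list's median was -0.31 in EV and -0.34 in OE, against 0.04 and 0.08 for all tested genes. Otx2, a factor of the formative epiblast, stood at 14.3 and 15.3 FPKM in day 6 EV, against 3.21 and 3.93 in day 2 EV, and rose by 1.79 (SE 0.23, adjusted p = 0.000769). Myc stood at 8.92 and 17.2 FPKM in day 6 EV, against 70.4 and 65.2 in day 2 EV, and fell by 2.36 (SE 0.28, adjusted p = 0.000544). Mycn fell by 1.78 (adjusted p = 0.000674). Without D2_dTAG replicate 1, 4 were higher and 12 lower in EV, while 29.4% and 22.8% of all genes were.

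Of 13 tested genes known as targets of OCT4 with SOX2, none passed in OE at day 2 (limma), while 0.846% of all tested genes did. An unadjusted p below 0.05 was found there for 2 of the 13 and for 12.3% of all tested genes. At day 6, 1 was higher and 3 were lower, Zfp42 among them, while 1.92% and 1.79% of all tested genes were. Lefty1, an inhibitor of Nodal signalling, stood at 99.2 and 73.1 FPKM in day 6 OE, against 305 and 352 in day 6 EV. At day 2 Lefty1 stood at 213 and 228 FPKM in OE, against 230 and 195 in EV. The groups were apart at day 6 and overlapped at day 2, with a day 6 change of -1.93 (SE 0.19, adjusted p = 0.0015). Lefty2, its paralog, stood at 162 and 161 FPKM in day 6 OE, against 250 and 316 in day 6 EV, and fell by 0.79 (SE 0.11, adjusted p = 0.00764). Lefty1 passed under all 12 alternatives at day 6 and Lefty2 under 9, with adjusted p of up to 0.0922. The higher one, Dppa5a, changed by 0.45 and stood at 0.00 under quantile normalization. The list's median at day 6 was -0.01, against 0.05 for all tested genes. With dTAG13 4 of the 13 fell, Jarid2 (-0.96), Lefty2 (-0.91), Esrrb (-0.89) and Spp1 (-0.78), and none rose, with a median of -0.31, against -0.13 for all tested genes, of which 8.21% were lower. Without D2_dTAG replicate 1 the number that fell was 9, while 17% of all genes were lower, and Lefty2 stood at -0.87, Spp1 at -0.84, Esrrb at -0.55 and Jarid2 at -0.54. Lefty2 and Spp1 passed under 10 of 11 alternatives and Jarid2 under 7 of 11. Jarid2 lost its call without D2_DMSO replicate 1 (adjusted p = 0.134) and without D2_DMSO replicate 2 (adjusted p = 0.125). At day 6 against day 2 in EV, 4 were higher and 1 lower, among them Tdgf1, a Nodal co-receptor gene, with 1252 and 1339 FPKM at day 6, against 428 and 468 at day 2 (1.53, SE 0.15, adjusted p = 0.00021), and Nodal itself, which fell by 1.13 (adjusted p = 0.0022). In OE the counts were 3 and 4. The shares of all tested genes were 13.3% higher and 10.5% lower in EV, and 17.5% and 14.7% in OE.

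Among 24 tested chromatin proteins that bind OCT4, SOX2, NANOG or SALL4, none passed in OE at day 2 or day 6 (limma), while 0.846% and 3.72% of all tested genes did. An unadjusted p below 0.05 was found for 1 and 4 of the 24, and for 12.3% and 18% of all tested genes. The list's medians were 0.13 and 0.02, against 0.04 and 0.05 for all tested genes. With dTAG13 4 fell and none rose, with a median of -0.32, against -0.13 for all tested genes, of which 8.21% were lower. Chd4, the remodelling ATPase of NuRD, stood at 10.6 and 16.8 FPKM with dTAG13, against 27.7 and 26.6 with DMSO, a change of -0.97 (SE 0.19, adjusted p = 0.0142), or -0.66 without D2_dTAG replicate 1. Ep300, a histone acetyltransferase (-0.99), Tet1, which oxidises methylated cytosine (-0.74), and Smarcc1, a BAF subunit (-0.72), also fell. Without D2_dTAG replicate 1, 8 of the 24 fell, while 17% of all genes were lower, and Ep300 stood at -0.75, Tet1 at -0.71 and Smarcc1 at -0.46. Chd4, Ep300 and Tet1 passed under 8 of 11 alternatives and Smarcc1 under 6 of 11, with adjusted p of up to 0.452. All 4 lost the call without D2_DMSO replicate 1 and without D2_DMSO replicate 2, with adjusted p of 0.0942 to 0.181. At day 6 against day 2, 7 fell in EV and 9 in OE and none rose, with medians of -0.37 and -0.43, where 10.5% and 14.7% of all tested genes were lower and their medians were 0.04 and 0.08. The largest was Mbd3, the methyl-CpG-binding-domain subunit of NuRD, with 100 and 94.9 FPKM in day 6 EV, against 201 and 168 in day 2 EV (-0.90, SE 0.18, adjusted p = 0.0055). Without D2_dTAG replicate 1 the counts were 15 lower and 2 higher in EV and 15 lower and 1 higher in OE, where 22.8% of all genes were lower and 29.4% higher in EV, and 25.8% and 33.3% in OE.

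Close relatives were mostly low or not in the table: of 20 listed POU, SOX and SALL genes, 10 were in it and 9 were tested. Of the 9, 1 was higher with dTAG13 and none lower, while 4.01% and 8.21% of all tested genes were. In OE against EV at day 6, none was higher and 1 lower, while 1.92% and 1.79% of all tested genes were. In EV between days, 1 was higher and none lower, while 13.3% and 10.5% of all tested genes were. Sox15, the relative of Sox2 that can bind with OCT4, was higher with dTAG13, at 94.9 and 106 FPKM, against 77.9 and 57.5 with DMSO (0.58, SE 0.14, adjusted p = 0.0312), with no overlap. The change was 0.66 without D2_dTAG replicate 1 and 0.36 without D2_DMSO replicate 2 (adjusted p = 0.211), and it passed under 9 of 11 alternatives, with adjusted p of up to 0.45. In day 2 EV, the other day 2 control, Sox15 stood at 99.5 and 97.4 FPKM, near its dTAG13 level. DMSO against EV gave -0.55 for Sox15 (adjusted p = 0.238, limma). Sox15 stood above Sox2 on the FPKM scale in all 12 libraries. Sox13 stood at 2.01 and 1.58 FPKM in day 6 OE, against 6.56 and 6.2 in day 6 EV, and fell by 1.41 (SE 0.30, adjusted p = 0.0328), passing under 7 of 11 alternatives with adjusted p of up to 0.251. Sox4 was higher in EV at day 6 than at day 2 (1.01, adjusted p = 0.0258), at under 2 FPKM in each of those libraries, and passed under 6 of 11 alternatives with adjusted p of up to 0.172 and values from 0.58 under quantile normalization to 2.12 with a pseudocount of 0.1. In OE at day 6 against day 2, 1 of the 9 was higher and 1 lower, while 17.5% and 14.7% of all tested genes were. None passed in OE at day 2 (limma), while 0.846% of all tested genes did, and 2 had an unadjusted p below 0.05, as did 12.3% of all tested genes.

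**Figure D5:**
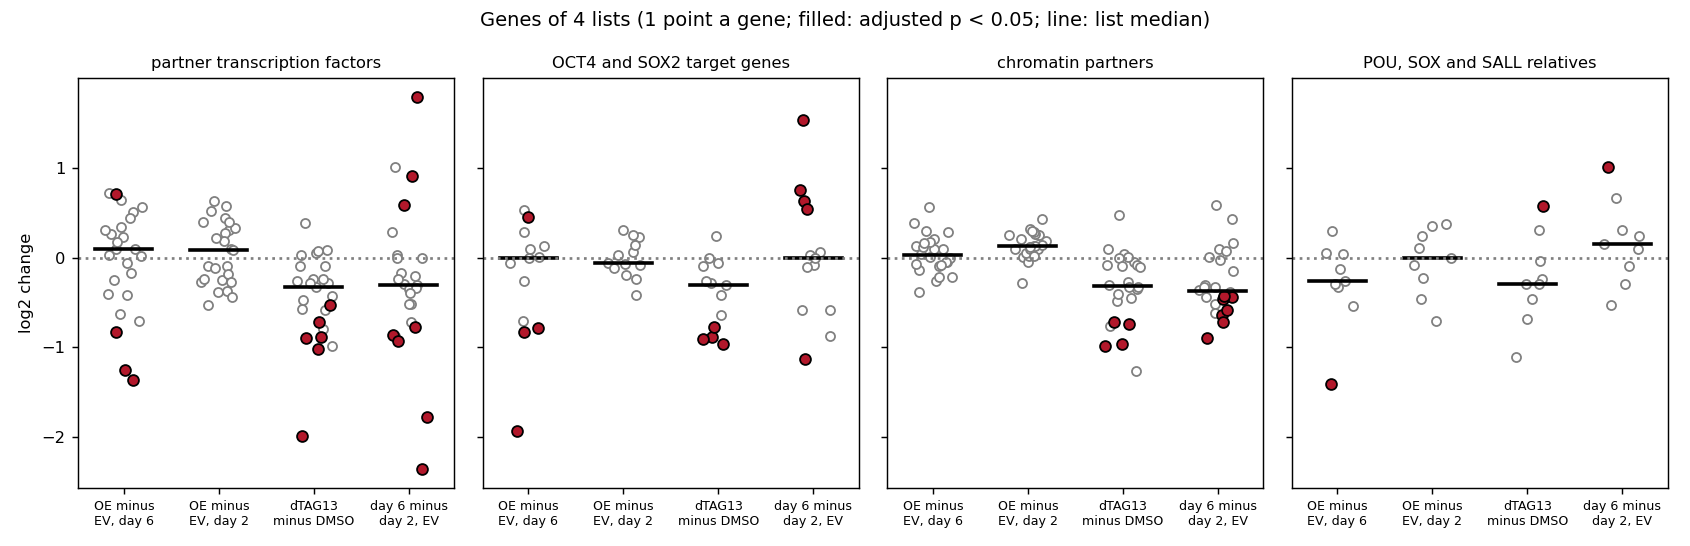
Change of each tested gene (log2 of FPKM + 1, vertical axis) of 4 lists in 4 comparisons; each point is a gene, filled points passed an adjusted p of 0.05 and lines are list medians. Of the partner transcription factors 6 fell with dTAG13, of the chromatin partners 4, and no gene of any of these lists passed in OE at day 2.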

How the data were processed

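Poly(A)-enriched RNA of sorted PGCLCs was sequenced, per the labels' protocols. Per the submitters' processing notes, FastQC 0.10.1, Trim Galore 0.6.3, cutadapt (version not stated), STAR 2.7.6a, Cufflinks 2.2.1 and the mm10 build were used. The deposited table holds FPKM by the authors for 12955 genes in 12 libraries, with an added 1 that was inferred from the digits (90.1% of values from 1.1 to 2 had 7 or more digits, 0% of those from 2 to 10) and subtracted. Depth per library is unknown, so no counting interval is given. Sample columns not matched to a label numbered 0.

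Genes with an FPKM of at least 1 in 2 libraries (12059) were fitted in 1 model of 6 group means on log2(FPKM + 1) with limma 3.58.1 (R 4.3.3; trended prior, 6 residual degrees of freedom, Benjamini-Hochberg adjustment over all tested genes, threshold 0.05), tested on simulated data. The 5 genes and all lists were chosen with earlier results of these data known. From each list up to 3 called genes with the largest change were named, and others after their values were seen. Alternatives changed the pseudocount, the low-value filter, the scaling, the replicate block, the samples fitted and the libraries left out. Alternatives for listed genes were chosen after seeing the data. Positions came from GENCODE M21 and promoters from RefSeq. Python 3.11.15, pandas 2.3.3, numpy 2.4.6 and matplotlib 3.10.9 were used.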

Additional observations from a re-analysis of the deposited data

Results flagged for a closer look

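The OE effect on Lefty1, an inhibitor of Nodal signalling and a target gene of OCT4 with SOX2, differed between the days. It was lower by 1.99 at day 6 than at day 2 on the log2 scale (a difference of -1.99, SE 0.26, adjusted p = 0.0229, limma), with OE below EV in both day 6 libraries and overlapping groups at day 2. The difference passed under 8 of 16 alternatives, with values from -2.20 to -1.77 and adjusted p from 0.000185 to 0.194, and was lost when any 1 of its 8 libraries was left out. None of Pou5f1, Sox2, Nanog, Sall4 and Utf1 passed this test of the difference (limma), while 0.232% of all tested genes did. An unadjusted p below 0.05 was found for 1 of the 5 and for 10.8% of all tested genes.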

How the results depend on the processing

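Of 435 values of the 5 genes under alternative settings, 402 kept their direction and their side of the threshold, 10 lost a call, 3 gained a call and 20 changed direction, where none had passed. Direction changed for Nanog with dTAG13 (0.01) and for Sox2 (-0.02) and Sall4 (0.00) in DMSO against EV under median-ratio scaling. It changed for Sall4 in OE between days (0.07) and for Sox2 in DMSO against EV (-0.02) under quantile normalization, under which Dppa5a, a called target gene, stood at 0.00 in OE against EV at day 6. With 1 library left out, values ran from -0.08 to 0.02 for Sox2 and -0.30 to 0.07 for Utf1 in OE at day 6, from -0.10 to 0.20 for the Sall4 difference between OE effects, from -0.23 to 0.06 for Pou5f1, -0.05 to 0.47 for Sox2 and -0.23 to 0.09 for Nanog with dTAG13, from -0.05 to 0.28 for Sox2 in EV between days, and from -0.24 to 0.28 for Sox2 and -0.12 to 0.20 for Sall4 in DMSO against EV. The causes were not tested. The number of all genes past the threshold moved far more. For OE at day 2 (102) it was 188 with quantile normalization, 171 with median-ratio scaling, 1382 with only the groups compared and 1 to 1688 with 1 library left out. For OE at day 6 (448) it was 1048 with quantile normalization, 3495 with only the groups compared and 18 to 3044 with 1 library left out. For the difference between OE effects (28) it was 151, 49, 1194 and 2 to 1336 under the same 4 changes as at day 2. With dTAG13 (1473) limma called 0 genes with only the groups compared (1162 had an unadjusted p below 0.05) and 203 to 7223 with 1 library left out. Between days it was 5244 and 1089 to 6267 in EV (2863), and 7339 and 1863 to 7084 in OE (3890), with only the groups compared and with 1 library left out. For DMSO against EV (47) it was 81 with quantile normalization, 302 with only the groups compared and 9 to 972 with 1 library left out. In all comparisons but dTAG13, the highest count with 1 library left out came without D2_dTAG replicate 1. Where a group was left with 1 library, that library was assumed to vary like the other groups. Same-numbered libraries did not deviate together in most pairs of groups (median correlation 0.00 over 15 pairs, range -0.13 to 0.25), but 4 pairs lay above 0.1. The replicate block in limma kept every call of the 5 genes (Nanog at day 6, 0.65, adjusted p = 0.0449, and Sall4, adjusted p = 0.0492). It lost those of Myc in OE at day 6 (adjusted p = 0.0501) and with dTAG13 (adjusted p = 0.0623). The unknown depth limits what can be said of low genes.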
